A study of Saccharomyces cerevisiae with 4 samples.

Results

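The genes described here encode enzymes of amino acid synthesis in the yeast Saccharomyces cerevisiae, outside the routes to arginine and methionine. They are 45 of the 6600 coding sequences in the count table, chosen by name: the HIS genes of histidine, the LYS genes of lysine, the ILV genes with LEU1, LEU4 and LEU9 of the branched-chain amino acids, the ARO, TRP, TYR and PHA genes of the aromatic amino acids, the SER, THR, PRO and ASN genes, and GDH1 and GLT1, which make glutamate from ammonium and from glutamine. Each is annotated as 1 uninterrupted coding exon. All 45 were found in the table and all passed the filter on low counts.

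The libraries are ribosome profiling libraries, which read the stretches of mRNA shielded by ribosomes during nuclease digestion, so the count of a gene stands for ribosomes on its coding sequence. The mutant had its OAZ1 gene exchanged for a version read without a change of frame, and the wild type (WT) kept the natural, frameshifted OAZ1; each group had 2 libraries. Both groups were in the 74D-694 strain background and all 4 samples grew in synthetic medium, were taken in mid-exponential phase and met cycloheximide, a drug that halts elongating ribosomes, at 50 µg/mL. No label says that the replicates were separate cultures, so the spread behind every p-value is the one between these samples and may be technical. No mRNA libraries were analysed here, so a difference in ribosomes per mRNA and a difference in mRNA level cannot be told apart.

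OAZ1 encodes antizyme, a protein that marks ornithine decarboxylase, the entry enzyme of the polyamine route, for breakdown by the proteasome. Enzymes of amino acid synthesis in yeast are known as targets of general amino acid control, in which the transcription factor Gcn4 is translated more when amino acids run short and then activates genes of many different pathways together. On top of this lie pathway-specific regulators, among them Leu3 for leucine and its branched-chain relatives and Lys14 for lysine, and the enzymes that open a pathway are usually inhibited by its end product. Strain 74D-694 is commonly described as unable to make histidine, leucine and tryptophan because of mutations in HIS3, LEU2 and TRP1, genes of these same routes.

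Total counts were 7571371 and 2826895 in mutant replicates 1 and 2, and 29671498 and 10202557 in WT replicates 1 and 2. OAZ1 itself had 160 and 49 counts in mutant and 379 and 110 in WT, or 20.5 and 18.1 CPM in mutant and 12.7 and 10.7 CPM in WT (CPM, the usual scaling of counts to a common library total, with TMM factors). Its log2 fold change of 0.73, mutant over WT, had an adjusted p of 0.755 (edgeR). The value was 0.87 with WT replicate 1 left out and 0.63 with WT replicate 2 left out. HIS3 had 0 counts in all 4 libraries, which allows up to 1.06 CPM in the shallowest library and 0.101 CPM in the deepest. WT replicate 1 was unlike the other 3: the genes whose proteins have a long hydrophobic stretch took 17.2% and 16.9% of counts in mutant and 20.7% and 16.6% in WT replicates 1 and 2. The endoplasmic reticulum chaperone gene KAR2 had 455 and 479 CPM in mutant, against 1414 and 560 CPM in WT replicates 1 and 2. Among the 45 members, 10 encode such a stretch. Results that rest on that library are given with and without it, and the part of these differences in them was not tested.

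The sequences in front of these genes were read first, since the letters bound by the 3 regulators are known. In the 500 bases before the start codon, the Gcn4 motif TGACTCA, searched on both strands, was found for 21 of the 45 members, 46.7%, against 4.07% of 5896 upstream windows of the same length. It stood before 4 of 6 histidine genes, 6 of 8 branched-chain genes, both asparagine genes and 2 of 3 proline genes, and before 2 of 7 lysine genes and 0 of 4 serine genes. The Leu3 motif, CCGG repeated after a gap of 2 bases, was found for 4 members, LEU1, ILV2, ILV5 and GDH1, or 8.89%, against 0.271% of all windows. A loosened Lys14 motif, TCCNNNGGA, was found for 7 members, 15.6%, against 6.0% of all windows, and 4 of these 7 were lysine genes. Both of the last motifs were searched on both strands, and 0 matches of different motifs overlapped. A match is a description of the letters and not a proven site.

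Windows with the Gcn4 motif are shown for genes whose values are given below, with the motif in capitals and the strand of the gene printed 5′ to 3′ (RefSeq genome of S288C, R64, the assembly known as sacCer3). TGAGTCA is the same motif on the other strand.
LEU4, chrXIV:426824-426880, minus strand: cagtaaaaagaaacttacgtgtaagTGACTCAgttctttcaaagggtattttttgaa
LEU9, chrXV:522745-522801, plus strand: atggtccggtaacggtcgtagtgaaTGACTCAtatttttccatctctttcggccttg
HIS5, chrIX:142701-142757, plus strand: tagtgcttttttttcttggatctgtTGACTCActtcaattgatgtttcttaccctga
ARO4, chrII:718275-718331, minus strand: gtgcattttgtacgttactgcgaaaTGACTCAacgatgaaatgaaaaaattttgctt
TRP3, chrXI:38245-38301, minus strand: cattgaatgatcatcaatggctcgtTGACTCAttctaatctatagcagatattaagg
PRO2, chrXV:922999-923055, minus strand: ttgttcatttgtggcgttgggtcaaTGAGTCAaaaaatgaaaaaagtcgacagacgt
ASN1, chrXVI:822368-822424, plus strand: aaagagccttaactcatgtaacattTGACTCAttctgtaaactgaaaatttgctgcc

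Windows with the Leu3 motif are shown for the members that hold it and for BAT1, the mitochondrial branched-chain aminotransferase gene, because LEU1 and BAT1 are compared below; LEU2 also holds it. The window of GDH1 overlaps the annotated reading frame YOR376W.
LEU1, chrVII:478835-478894, minus strand: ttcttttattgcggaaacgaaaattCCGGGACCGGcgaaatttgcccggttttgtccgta
ILV5, chrXII:839596-839655, minus strand: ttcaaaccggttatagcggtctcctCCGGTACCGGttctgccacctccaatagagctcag
ILV2, chrXIII:483591-483650, plus strand: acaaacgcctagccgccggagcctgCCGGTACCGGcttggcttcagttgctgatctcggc
GDH1, chrXV:1043412-1043471, minus strand: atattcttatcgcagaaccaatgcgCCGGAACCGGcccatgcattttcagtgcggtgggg
BAT1, chrVIII:517360-517419, plus strand: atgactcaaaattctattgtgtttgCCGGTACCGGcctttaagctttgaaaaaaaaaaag

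For lysine, the loosened motif is shown for LYS1, LYS12 and LYS21, since LYS21 holds it and its near copy LYS20 does not. LYS9 holds it as well, at 225 and at 163 bases before the start codon, and its windows are not shown.
LYS1, chrIX:420899-420957, minus strand: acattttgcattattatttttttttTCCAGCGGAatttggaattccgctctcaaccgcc
LYS12, chrIX:187781-187839, minus strand: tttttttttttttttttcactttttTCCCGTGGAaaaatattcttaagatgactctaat
LYS21, chrIV:227038-227096, plus strand: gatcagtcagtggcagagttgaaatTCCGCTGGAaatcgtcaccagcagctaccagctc

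Ribosomes on the 45 genes took a larger share of counts in mutant than in WT, at 4.13% and 4.08% in mutant replicates 1 and 2 and 3.82% and 3.37% in WT replicates 1 and 2. The 95% Wilson intervals were 4.11% to 4.14% and 4.06% to 4.10% in mutant, and 3.81% to 3.83% and 3.36% to 3.38% in WT, and cover counting error only. Both mutant libraries therefore lay above both WT libraries, with means of 4.11% ± 0.0328 in mutant and 3.60% ± 0.320 in WT (SD, n = 2 each). The difference of 0.51 percentage points had p = 0.333 in a two-sided exact permutation test, the smallest p that 2 libraries against 2 can give. Leaving out WT replicate 1 made it 0.736, and leaving out WT replicate 2 made it 0.284. With all libraries, the 8 branched-chain genes together gave 0.323 of the 0.51 points. Of these 8, ILV5 and LEU1 had the highest levels. Their mean CPM were 8045 and 5011 in mutant and 6236 and 3644 in WT. ILV1, LEU4 and LEU9 had lower means in mutant than in WT. The lysine share was lower in mutant, at -0.0318 points.

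No single gene of the 45 passed the test. In edgeR's quasi-likelihood test with Benjamini-Hochberg adjustment over all 5233 genes tested, 0 of 45 members were called, as were 0% of all tested genes, and DESeq2 called 0 members. At an unadjusted p under 0.05 edgeR had 5 members higher in mutant (PRO2, ARO2, ARO3, TRP4 and TYR1), against a background of 1.72% of tested genes, and 1 lower (LYS20), against 3.73%. In either direction this made 6 of 45, against 5.45% of tested genes. At the same unadjusted threshold DESeq2 had 1 member higher and 2 lower, so the number of higher members differed between the methods. The share of all genes that DESeq2 put under that threshold was not computed. Its 1 and 2 members therefore cannot be set against a background. At an adjusted p under 0.05 DESeq2 called 0.0683% of 5854 genes.

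Most of the 45 nevertheless lay on the same side. The log2 fold change, mutant over WT, was above 0 for 36 members, 80.0%, against 48.4% of all tested genes. Its median was 0.20 over the members and -0.01 over all tested genes, and the members ran from -0.84 for ILV1 to 0.46 for HIS6. Both mutant libraries lay above both WT libraries for 25 members, 55.6%, against 19.1% of all tested genes, and below both for 3 members, 6.67%, against 17.9%; in either direction, 28 members did not overlap, 62.2% against 36.9%. Without WT replicate 1, both mutant libraries were above the remaining WT library for 35 members and below it for 3, against backgrounds of 33.2% and 33.6%. Without WT replicate 2 the numbers were 29 above and 11 below, against backgrounds of 38.8% and 39%.

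The number of members with a log2 fold change above 0 was 38 with WT replicate 1 left out and 31 with WT replicate 2 left out, against 50.6% and 51.4% of genes tested in those fits. It was 34 without mutant replicate 1 and 35 without mutant replicate 2, against 47.4% and 48.1%. Without WT replicate 1, edgeR called 1 member higher (LEU1) and 0 lower at an adjusted p under 0.05, against 0.325% and 0.42% of genes. Without WT replicate 2 it called 2 members higher (ARO2 and SER1) and 5 lower (LYS4, LYS20, LEU4, LEU9 and ILV1), against 4.35% and 14.9% of genes, and 0 were called without either mutant library.

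**Figure D1:**
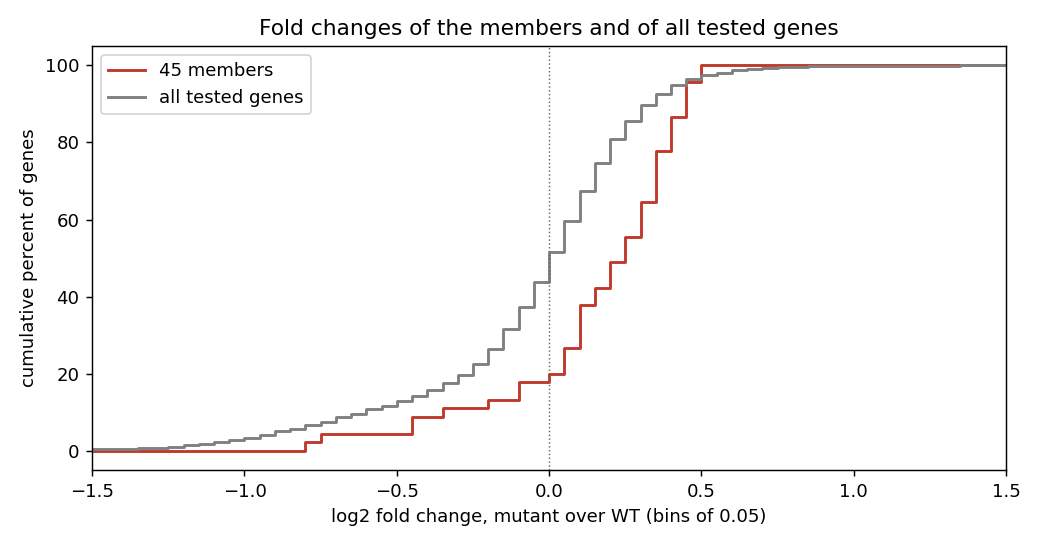
Cumulative percent of genes (y axis) up to each log2 fold change, mutant over WT (x axis, bins of 0.05), for the 45 members (red) and all 5233 tested genes (grey). The members' line runs to the right of the other until both near 100%, with medians of 0.20 and -0.01, while 3 branched-chain and 2 lysine genes make up its lower end.

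**Figure D2:**
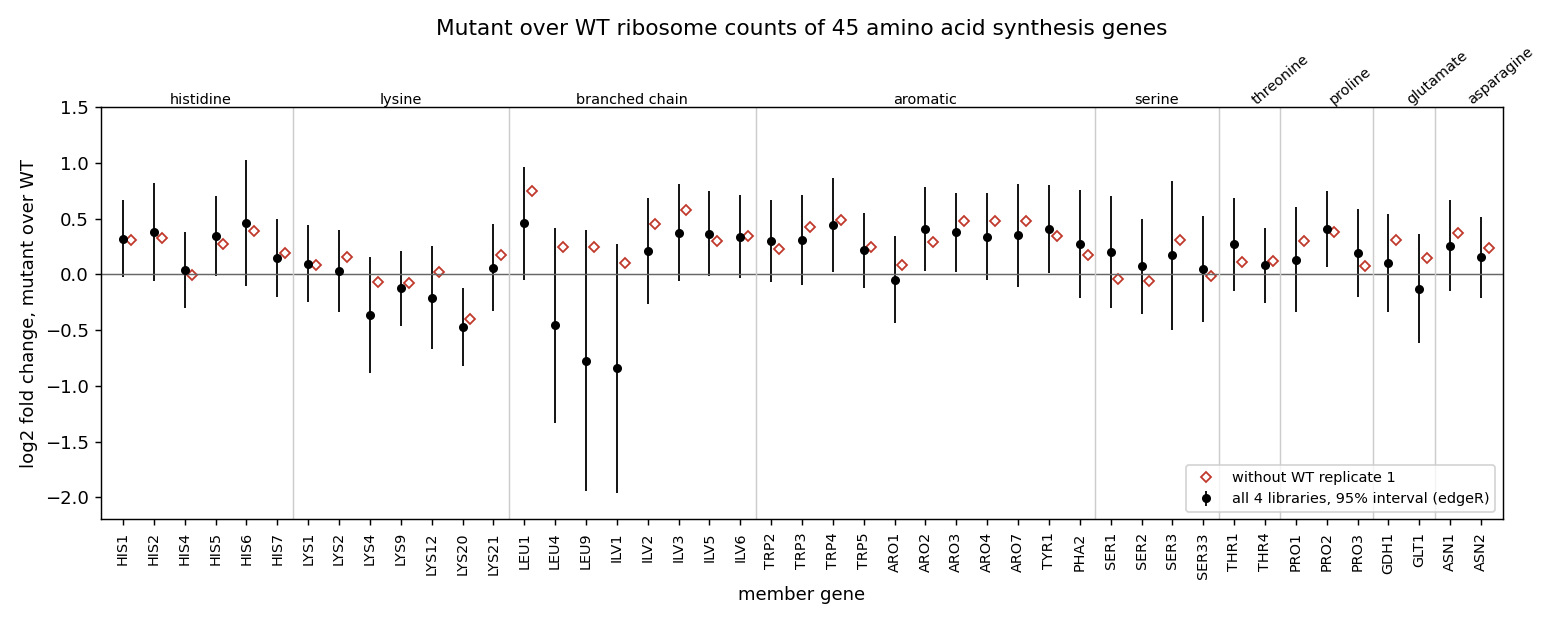
Log2 fold change, mutant over WT (y axis), for each of the 45 genes (x axis) by pathway, with 95% intervals from edgeR (black, all 4 libraries) and the value without WT replicate 1 (open diamonds). Histidine and aromatic genes lie mostly above 0 and 4 of 7 lysine genes lie below it, while 48.4% of all tested genes lie above 0. LEU4, LEU9 and ILV1 move across 0 when WT replicate 1 is left out.

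The aromatic genes lay almost all on one side. In 10 of the 11, both mutant libraries lay above both WT libraries, against 19.1% of all tested genes; the other was ARO1, which encodes the pentafunctional enzyme of the middle of the shikimate route, with a log2 fold change of -0.05. The median of the 11 was 0.34 with all libraries, 0.35 without WT replicate 1 and 0.29 without WT replicate 2.

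ARO3 and ARO4 encode isoenzymes that open the shikimate route, inhibited by phenylalanine and by tyrosine. ARO3 (YDR035W) had 714 and 729 CPM in mutant and 592 and 518 CPM in WT, a log2 fold change of 0.38 (SE 0.15, adjusted p = 0.755, edgeR). ARO4 had 893 and 964 CPM in mutant and 805 and 663 CPM in WT, a log2 fold change of 0.34 (SE 0.16, adjusted p = 0.755, edgeR). Neither gene's groups overlapped, and in both genes WT replicate 2 was the lowest library. ARO2, the chorismate synthase gene at the end of the common route, had 837 and 922 CPM in mutant and 614 and 715 CPM in WT. Its mutant libraries were also the higher ones, but here WT replicate 1 was lowest, and its log2 fold change of 0.40 (SE 0.15, adjusted p = 0.755, edgeR) became 0.52 without WT replicate 2, with an adjusted p of 0.0328 (edgeR), but 0.30 without WT replicate 1, with an adjusted p of 0.848 (edgeR).

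After chorismate the route divides. TRP2 and TRP3 encode the partners of anthranilate synthase, and TRP3 carries a further enzyme of the tryptophan branch. They had log2 fold changes of 0.30 and 0.31. TRP4, the anthranilate phosphoribosyltransferase gene, had 180 and 223 CPM in mutant and 153 and 143 CPM in WT, a log2 fold change of 0.44 (SE 0.17, adjusted p = 0.755, edgeR). TRP5, tryptophan synthase, closed this branch with 0.22. On the other branch ARO7, the chorismate mutase gene, had 0.35. TYR1 (YBR166C), the prephenate dehydrogenase gene of tyrosine synthesis, had 106 CPM in each mutant library and 76.5 and 83.1 CPM in WT, a log2 fold change of 0.41 (SE 0.16, adjusted p = 0.755, edgeR). PHA2, which encodes the prephenate dehydratase of phenylalanine synthesis, had the lowest level per length of all 45 genes and a log2 fold change of 0.27. In each of these 7 members after chorismate the mutant libraries lay above the WT libraries, while the related genes TRP1, ARO8 and ARO9, which act in the same branches, had overlapping groups.

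The histidine genes lay in the same direction. All 6 had log2 fold changes above 0, from 0.04 to 0.46 with a median of 0.33, and in 5 both mutant libraries lay above both WT libraries, against 19.1% of all tested genes. Without mutant replicate 2 the median was 0.21. HIS1 (YER055C), whose enzyme opens the pathway and is inhibited by histidine, had 911 and 1014 CPM in mutant and 767 and 776 CPM in WT, a log2 fold change of 0.32 (SE 0.14, adjusted p = 0.755, edgeR). HIS5, the histidinol-phosphate aminotransferase gene, had 381 and 407 CPM in mutant and 294 and 325 CPM in WT, a log2 fold change of 0.35 (SE 0.15, adjusted p = 0.755, edgeR). In neither gene did the groups overlap, and in both mutant replicate 2 was the highest library.

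HIS6, an isomerase gene of the middle steps, had the largest log2 fold change of the 45 at 0.46, but 52.5 and 77.7 CPM in mutant against 45.2 and 48.5 CPM in WT, with mutant replicate 2 far above the other 3 libraries; without it the value was 0.17. HIS2, the phosphatase gene, and HIS7, the gene of the glutamine-using step that forms the imidazole ring, had 0.38 and 0.15. HIS4, the gene of a multifunctional enzyme that carries early steps and the last, was the exception within histidine, with 1888 and 1790 CPM in mutant and 1745 and 1843 CPM in WT. Its groups overlapped and its log2 fold change was 0.04, with a 95% interval from -0.31 to 0.38.

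Lysine synthesis had 4 of its 7 genes below 0 and a median of -0.12. Above 0 lay 42.9% of its genes, near the 48.4% of all tested genes. It held all 3 members with both mutant libraries below both WT libraries, a pattern of 17.9% of all tested genes. These 3 were LYS20, LYS4 and LYS9. Without WT replicate 1 the lysine median was 0.02 and 4 of 7 genes were above 0, and without WT replicate 2 it was -0.17.

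LYS20 and LYS21 encode homocitrate synthases, which commit carbon to lysine and are inhibited by it. LYS20 (YDL182W, chrIV:133437-134723, plus strand) had 400 and 390 CPM in mutant and 577 and 520 CPM in WT, the smallest unadjusted p of the 45 (0.0164) and a log2 fold change of -0.47 (SE 0.14, adjusted p = 0.755, edgeR). The mean was 395 ± 6.90 CPM in mutant and 548 ± 40.4 CPM in WT (SD, n = 2 each). Both mutant libraries lay below both WT libraries. The log2 fold change was -0.40 with WT replicate 1 left out and -0.55 with WT replicate 2 left out. LYS21 had 578 and 672 CPM in mutant and 643 and 554 CPM in WT, overlapping groups and a log2 fold change of 0.06 (95% interval -0.33 to 0.46). The coding sequences are near copies, with 91.1% of 426 aligned residues identical and 48.6% of the 28-base stretches of LYS20 also present in LYS21. How reads with several matches were counted is not given in the sources used here, so each of the 2 values is uncertain; their sum was 978 and 1062 CPM in mutant and 1220 and 1074 CPM in WT.

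Further along, LYS4, the homoaconitase gene, had 171 and 165 CPM in mutant, and 256 and 176 CPM in WT replicates 1 and 2. Its log2 fold change of -0.36 became -0.07 with WT replicate 1 left out and -0.61 with WT replicate 2 left out (adjusted p = 0.0067, edgeR), so its size rested on WT replicate 1. LYS12, the homoisocitrate dehydrogenase gene, had 416 and 462 CPM in mutant and 583 and 431 CPM in WT. WT replicate 1 was again the highest library, but here the groups overlapped, and the log2 fold change of -0.21 became 0.02 without that library. The later genes LYS2, LYS9 and LYS1, for the aminoadipate reductase and the enzymes that form and split saccharopine, had log2 fold changes of 0.03, -0.12 and 0.10. LYS1, the last step, was the lysine gene whose mutant libraries lay above both WT libraries.

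**Figure D3:**
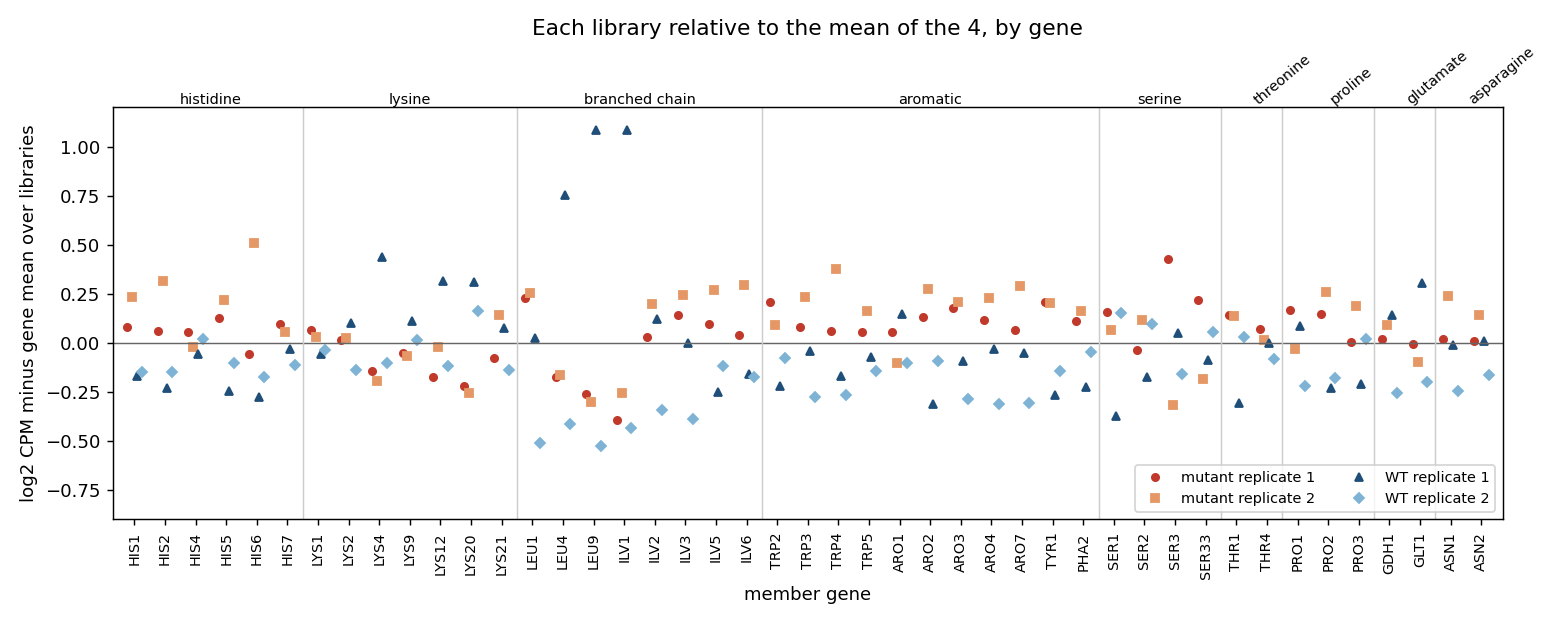
Log2 CPM of each library minus the mean of the 4 libraries (y axis) for each of the 45 genes (x axis), by pathway. Mutant replicates are circles and squares, WT replicates triangles and diamonds; WT replicate 1 lies far above the other libraries for LEU4, LEU9 and ILV1 and not for the histidine genes.

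The branched-chain genes differed in how WT replicate 1 behaved. Isoleucine, valine and leucine share a route in mitochondria, run by ILV2 with its regulatory subunit ILV6, then ILV5 and ILV3; ILV1 supplies the isoleucine branch from threonine, and LEU4 and LEU9 encode the isopropylmalate synthases that open the leucine branch. The 3 genes that open a branch were high in WT replicate 1 alone, while the shared route was higher in mutant or overlapped.

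ILV1 (YER086W, chrV:328477-330207, plus strand), the threonine deaminase gene, had 120 and 132 CPM in mutant, against 334 CPM for WT replicate 1 and 117 CPM for WT replicate 2. LEU9 (YOR108W, chrXV:523027-524841, plus strand) had 133 and 129 CPM in mutant, and 336 and 110 CPM in WT replicates 1 and 2. LEU4 (YNL104C, chrXIV:424895-426754, minus strand) had 326 and 328 CPM in mutant, and 620 and 276 CPM in WT replicates 1 and 2. In each the mutant libraries sat just above WT replicate 2 and far below WT replicate 1, so the groups overlapped.

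WT replicate 1 exceeded WT replicate 2 by 3.06-fold for LEU9, 2.86-fold for ILV1 and 2.25-fold for LEU4, the 3 largest ratios among the 45. Over the 4603 genes averaging 100 counts or more, 1.35%, 1.87% and 6.30% had a ratio at least as high as these 3. Their log2 fold changes of -0.78, -0.84 and -0.46, in the order LEU9, ILV1 and LEU4, crossed 0 without WT replicate 1, to 0.25, 0.10 and 0.24. Without WT replicate 2 they were -1.36, -1.41 and -0.92, each past the threshold (adjusted p = 2.14e-12, 3.3e-13 and 3.26e-06, edgeR). Such a fit takes the spread of the mutant pair for the single WT library. ILV1 encodes a hydrophobic stretch, LEU4 and LEU9 do not, and the part of the larger share of such genes (20.7%) and of the KAR2 level (1414 CPM) of WT replicate 1 in these values was not tested.

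LEU9, ILV1 and LEU4 had the largest ratios between the WT libraries among the members, so every other member had a smaller one. A smaller ratio in genes with the Leu3 letters shown above therefore says nothing about the letters. ILV3 and ILV6, which lack the letters, had ratios of 1.31 and 1.01. The ratio of WT replicate 1 to WT replicate 2 was 1.45 for LEU1, 1.38 for ILV2, 1.32 for GDH1 and 0.91 for ILV5, and 1.68 for BAT1, which was chosen after its values were seen. LEU1 (YGL009C, chrVII:476313-478652, minus strand), the isopropylmalate isomerase gene, had 4964 and 5059 CPM in mutant and 4311 and 2978 CPM in WT. Its log2 fold change was 0.46 (SE 0.21, adjusted p = 0.755, edgeR), and without WT replicate 1 it was 0.75 with an adjusted p of 0.0269, the single member called in that fit. Without WT replicate 2 it was 0.22, with an adjusted p of 0.50 (edgeR). BAT1 had 3214 and 3358 CPM in mutant and 3380 and 2017 CPM in WT, so its groups overlapped, unlike those of LEU1. The 4 libraries gave it a log2 fold change of 0.28, which was 0.70 without WT replicate 1 (adjusted p = 0.0467, edgeR) and -0.04 without WT replicate 2. In both genes WT replicate 2 was the library that stood below the other 3.

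The shared mitochondrial route was less spread. ILV5, the reductoisomerase gene and the most occupied of the 45 per length, had 7564 and 8526 CPM in mutant and 5952 and 6520 CPM in WT, a log2 fold change of 0.37 (SE 0.16, adjusted p = 0.755, edgeR). ILV3, the dihydroxyacid dehydratase gene, had 1199 and 1284 CPM in mutant and 1085 and 829 CPM in WT, a log2 fold change of 0.38 (SE 0.18, adjusted p = 0.755, edgeR). ILV6 had 830 and 990 CPM in mutant and 725 and 716 CPM in WT, a log2 fold change of 0.34 (SE 0.15, adjusted p = 0.755, edgeR). In these 3 genes both mutant libraries lay above both WT libraries. ILV2, the acetolactate synthase gene, had 1024 and 1150 CPM in mutant and 1090 and 791 CPM in WT, so its groups overlapped.

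On the scale of CPM per kilobase of coding sequence, the regulatory subunit had more ribosomes than its catalytic partner in every library, at a mean level of 876 for ILV6 and 491 for ILV2. The ratio of ILV6 to ILV2 was 1.8 and 1.91 in mutant and 1.48 and 2.01 in WT. TRP3 and TRP2, the anthranilate synthase partners, had ratios of 0.734 and 0.884 in mutant and 0.906 and 0.699 in WT. Neither ratio separated the groups.

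**Figure D4:**
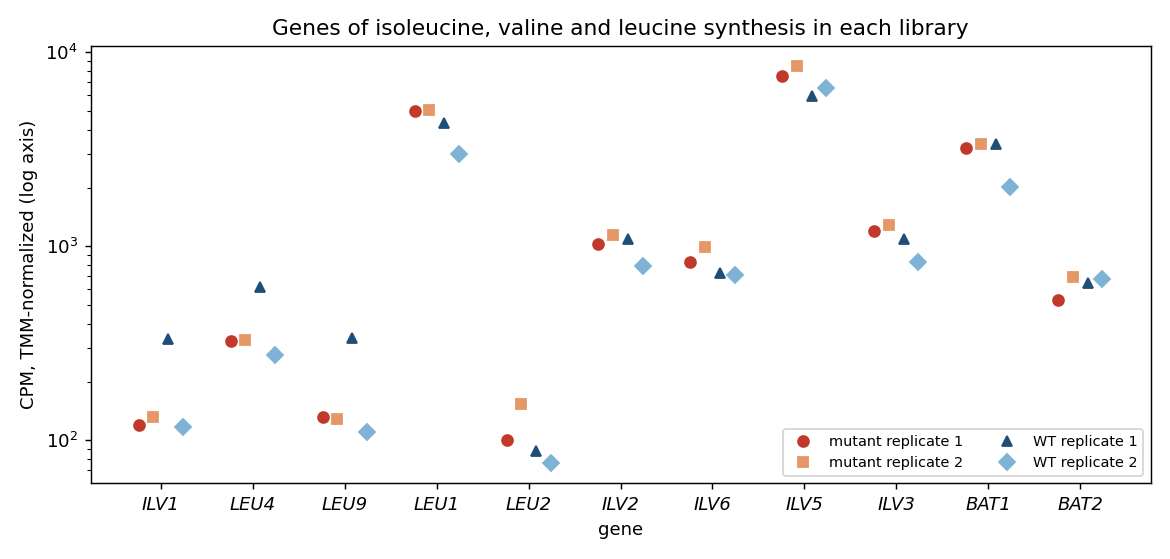
CPM after TMM scaling (y axis, log scale) of the branched-chain genes (x axis) in mutant replicates 1 and 2 and WT replicates 1 and 2. For ILV1, LEU4 and LEU9 the triangle of WT replicate 1 stands alone, and for LEU1 and BAT1 the diamond of WT replicate 2 lies below the other 3 libraries.

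Proline and asparagine genes lay above 0 with all 4 libraries, and serine genes did not separate the groups. PRO2 (YOR323C, chrXV:921535-922905, minus strand), the gamma-glutamyl phosphate reductase gene, had 518 and 560 CPM in mutant and 399 and 413 CPM in WT, a log2 fold change of 0.41 (SE 0.14, adjusted p = 0.755, edgeR). The mean was 539 ± 29.7 CPM in mutant and 406 ± 9.84 CPM in WT (SD, n = 2 each), and leaving out either WT library gave 0.38 or 0.43. PRO1, the kinase gene that opens the route from glutamate, and PRO3, the reductase gene that ends it, had log2 fold changes of 0.13 and 0.19 with overlapping groups. ASN1, an asparagine synthetase gene, had 3509 and 4089 CPM in mutant and 3433 and 2924 CPM in WT, a log2 fold change of 0.26 (95% interval -0.15 to 0.66). ASN2, its paralog, had 1260 and 1382 CPM in mutant and 1259 and 1117 CPM in WT, where mutant replicate 1 and WT replicate 1 were nearly equal.

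Serine is made from 3-phosphoglycerate by SER3 or SER33, then SER1 and SER2. SER3 had 53.9 and 32.2 CPM in mutant and 41.6 and 36.0 CPM in WT, and SER33 had 150 and 113 CPM in mutant and 121 and 134 CPM in WT. In both the mutant replicates lay on either side of the WT libraries, and both share 5.35% of their 28-base stretches with each other. SER1, the aminotransferase gene, had 367 and 344 CPM in mutant, and 254 and 366 CPM in WT replicates 1 and 2, so here WT replicate 1 was the low one. The log2 fold changes of the 4 genes were between 0.05 and 0.20, and without WT replicate 1 their median was -0.03. THR1, homoserine kinase, and THR4, threonine synthase, had 0.27 and 0.08, and in both genes the mutant libraries lay above the WT libraries.

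Glutamate supplies the amino group for most of these routes. GDH1, the main glutamate dehydrogenase gene for synthesis, had 3344 and 3513 CPM in mutant and 3639 and 2766 CPM in WT, a log2 fold change of 0.10 (95% interval -0.34 to 0.54). GLT1, glutamate synthase, had 586 and 551 CPM in mutant and 729 and 513 CPM in WT, a log2 fold change of -0.13. The WT libraries spanned the mutant ones in both genes. Per length, GDH1 stood at a mean of 2429 CPM per kilobase and its paralog GDH3 at 2.84.

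Within the 5 pairs of isoenzymes the split of counts could be read inside each library. LYS20 took 40.9% and 36.7% of the LYS20 and LYS21 counts in mutant and 47.3% and 48.4% in WT, a difference of -9.02 percentage points. The Wilson intervals were 39.8% to 42.0% and 35.0% to 38.5% in mutant and 46.8% to 47.8% and 47.5% to 49.3% in WT. They did not meet between the groups, but cover counting error only. LYS21 holds 48.6% of the 28-base stretches of LYS20. How reads with several matches were counted is not given in the sources used here, so this split is uncertain. ASN1 took 73.6% and 74.7% of its pair in mutant and 73.2% and 72.4% in WT, so its groups did not overlap but differed by 1.39 points. LEU4 took 71.1% and 71.8% in mutant and 64.8% and 71.5% in WT, so the low value was that of WT replicate 1, where LEU9 stood further above the other libraries than LEU4; without that library the difference was -0.05 points. The splits of ARO3 with ARO4, at 42.4% to 44.4%, and of SER3 with SER33, at 21.2% to 26.5%, overlapped between the groups. None of the 5 can be called by a two-sided exact permutation test with 2 libraries a group, which gives p = 0.333 at its smallest and adjusted p = 0.667 over the 5 pairs.

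**Figure D5:**
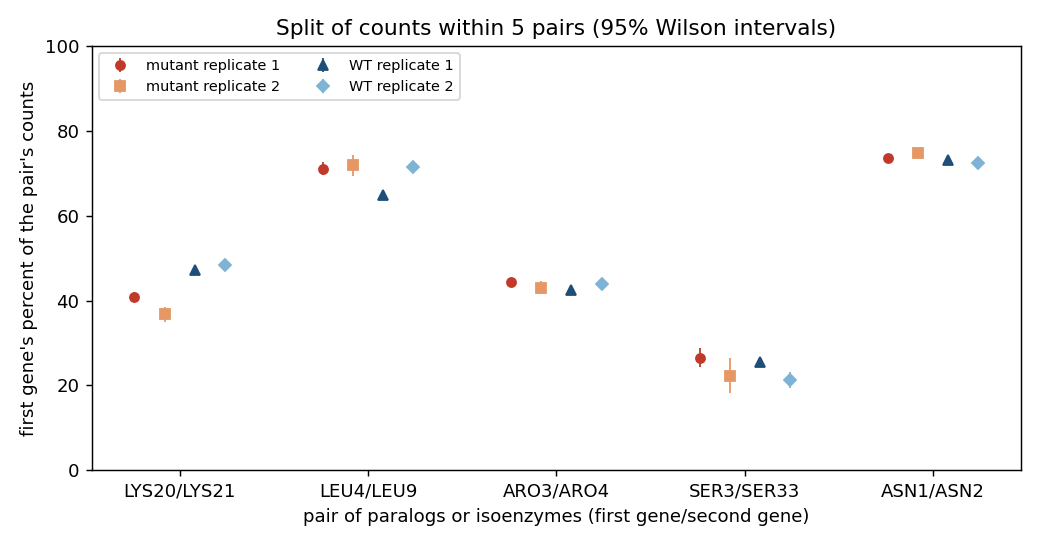
Percent of a pair's counts that fell on its first gene (y axis) in mutant replicates 1 and 2 and WT replicates 1 and 2, for 5 pairs (x axis), with 95% Wilson intervals that cover counting error only. LYS20 held 40.9% and 36.7% of its pair in mutant and 47.3% and 48.4% in WT; the other pairs differed less or overlapped.

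By level, the 45 genes were among the more occupied of the genome. On the scale of CPM per kilobase, 44 of 45 lay above the 50th percentile of all tested genes, 38 above the 75th and 21 above the 90th. The range ran from 22.8 for PHA2 to 6011 for ILV5, with LEU1, ASN1 and GDH1 at 1849, 2030 and 2429. The SD of the log2 difference over the 45 genes was 0.198 between the mutant libraries and 0.421 between the WT libraries. Between mutant and WT libraries it was 0.196 for mutant replicate 1 with WT replicate 2, 0.26 for mutant replicate 2 with WT replicate 2, and 0.434 and 0.475 for mutant replicates 1 and 2 with WT replicate 1. Over 4603 genes the SD was 0.299 between the mutant libraries and 0.512 between the WT libraries. With WT replicate 2 it was 0.224 for mutant replicate 1 and 0.344 for mutant replicate 2. With WT replicate 1 it was 0.527 and 0.609. The small spread between mutant replicate 1 and WT replicate 2 was thus not particular to the 45 genes.

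Members with and without the Gcn4 letters both lay mostly above 0. Of the 21 members with TGACTCA upstream, 18 lay above 0, with a median log2 fold change of 0.26. Of the 24 without it 18 lay above 0, with a median of 0.19. Both mutant libraries lay above both WT libraries for 15 of the 21 and 10 of the 24, against 19.1% of all tested genes. They lay below both for 0 and 3, against 17.9%. Among the other 202 tested genes with the motif, 51.5% lay above 0 and the median was 0.01. For 55 of these both mutant libraries lay above both WT libraries, and for 31 below. GCN4 itself had 114 and 130 CPM in mutant and 122 and 119 CPM in WT, a log2 fold change of 0.01 (95% interval -0.39 to 0.41).

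Of a list of 23 related genes, which adds aminotransferases, the aspartate family, glycine synthesis and the regulators, 22 were tested, HIS3 having no counts. None was called by edgeR; 2 of the 22, LEU2 and HOM2, had an unadjusted p under 0.05, both higher in mutant, against 1.72% of all tested genes in that direction, and DESeq2 called 0. Of the 22, 17 lay above 0, 77.3% against 48.4% of all tested genes, with a median of 0.18. Without WT replicate 2, 13 lay above 0, 59.1% against 51.4%, with a median of 0.09, and without mutant replicate 2, 14 did, 63.6% against 48.1%, with a median of 0.11. With all libraries, both mutant libraries lay above both WT libraries for 11, 50.0%, against 19.1% of all tested genes. HOM2, the aspartate semialdehyde dehydrogenase gene that feeds threonine synthesis, had 2012 and 2006 CPM in mutant and 1545 and 1446 CPM in WT, a log2 fold change of 0.43. LEU2, isopropylmalate dehydrogenase, had 101 and 155 CPM in mutant and 88.5 and 76.1 CPM in WT, a log2 fold change of 0.62. It passed without WT replicate 1 (0.72, adjusted p = 0.0458, edgeR) and without WT replicate 2 (0.51, adjusted p = 0.0464, edgeR). It did not pass without mutant replicate 1 (0.92, adjusted p = 0.935, edgeR) or without mutant replicate 2 (0.29, adjusted p = 0.999, edgeR), and mutant replicate 2 was its highest library. TRP1 had 17.5 and 28.1 CPM in mutant and 20.4 and 20.5 CPM in WT. The other 5 genes, ALT1, AAT1, HOM3, GLY1 and AAT2, were named for their small unadjusted p, a choice that favours separated groups. They had log2 fold changes of 0.36, 0.37, 0.31, 0.25 and 0.26, each with mutant libraries above WT libraries.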

How the data were processed

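The deposited values are raw read counts, whole numbers for each coding sequence in each of the 4 libraries. Per the submitters' processing notes, Bowtie2, DESeq2 and sacCer3 were used; for the counting tool, strand setting and reads with several matches the entry is: not given in the sources used here. Because only the header is separated by single tabs, its names were read against the non-empty fields of each line. Columns were matched by strain and replicate ("if" as in-frame). Of 6600 rows, 746 had no count and 5917 matched RefSeq coding sequences.

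The test was that of edgeR 4.0.16, run in R 4.3.3 (quasi-likelihood, two-sided, TMM, filterByExpr with minimum count 10 and minimum total 15, Benjamini-Hochberg at 0.05 over 5233 genes), and with DESeq2 1.42.0 as an alternative. The fit was tested on simulated data. A count of 0 allows up to 3 counts. CPM are TMM-normalized; shares carry 95% Wilson intervals. Hydrophobic segments are 19-residue windows with mean Kyte-Doolittle hydropathy of at least 1.6. Identity came from global alignments in Biopython 1.88 (BLOSUM62, gap costs 11 and 1). Members and lists were chosen with earlier results of these data known. Values are given in full for the 12 members with the smallest unadjusted p, both genes of each pair, and GDH1; related genes named are HIS3, LEU2, TRP1, GCN4 and the 6 others with the smallest p. Python 3.11.15, NumPy 2.4.6, pandas 2.3.3, SciPy 1.17.1 and matplotlib 3.10.9 were used.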

Additional observations from a re-analysis of the deposited data

How the results depend on the processing

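Of the counts and summaries, the number of members above 0 (31 to 38; 33 of 41 with little shared sequence) and their median log2 fold change (0.17 to 0.25) kept their direction under other normalizations, no filter, DESeq2, the replicate block, thinning, each library left out and members with little shared sequence. The difference in share of counts, recomputed with each library left out, after thinning and for members with little shared sequence, stayed above 0 (0.284 to 0.736). All tested genes called numbered 0 with all libraries, 4 by DESeq2, and 0 to 1008 with 1 library left out: 39 without WT replicate 1 and 1008 without WT replicate 2. Members called numbered 0 to 7 with 1 library left out, 1 without WT replicate 1 (LEU1) and 7 without WT replicate 2 (ARO2 and SER1 higher; LYS4, LYS20, LEU4, LEU9 and ILV1 lower). Members with both mutant libraries below the remaining WT library numbered 3 without WT replicate 1, against 33.6% of all tested genes. Without WT replicate 2 they numbered 11, against 39%. Members with both mutant libraries above it numbered 35 and 29, against 33.2% and 38.8%. These alternatives were chosen after seeing the data. The cause was not tested.

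With 1 library left out in turn, the log2 fold changes of these genes crossed 0: HIS4 ran between -0.005 and 0.077, LYS2 between -0.080 and 0.156, LYS12 between -0.41 and 0.021, LYS21 between -0.049 and 0.173, LEU4 between -0.92 and 0.24, LEU9 between -1.36 and 0.25, ILV1 between -1.41 and 0.10, ILV2 between -0.005 and 0.46, ARO1 between -0.17 and 0.083, and SER1 between -0.040 and 0.49. SER2 ran between -0.061 and 0.21, SER3 between -0.26 and 0.47, SER33 between -0.17 and 0.23, PRO1 between -0.004 and 0.30, GDH1 between -0.086 and 0.31, GLT1 between -0.36 and 0.15, TRP1 between -0.23 and 0.47, GCN4 between -0.084 and 0.11, and BAT1 between -0.040 and 0.70. After thinning to the smallest total, 1 random draw, SER33 had -0.009 and GCN4 -0.091, and with library totals only GCN4 had -0.012. The cause was not tested.

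Replicate numbers are not stated to pair libraries, and the deviations of same-numbered libraries had a correlation of 0.0805 over 4603 genes. With the replicate block, 0 members were called, 36 lay above 0 and the median was 0.21. The block called 0 genes in all. The shallowest library, with 2826895 counts, limits the precision of the low members most: PHA2 had 69 counts there.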
